A study of Mus musculus with 6 samples.

Results

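The clustered protocadherins are neural cell adhesion molecules encoded side by side in 3 gene clusters, alpha, beta and gamma. They were followed here in ribosome-bound RNA of the mouse brain after stroke. Members were the rows of the deposited expression table whose symbol begins with Pcdha, Pcdhb or Pcdhg followed by an isoform number or by ac, ga, gb or gc. This gave 52 of 12968 genes: 12 of the alpha cluster, 19 of the beta cluster and 21 of the gamma cluster. RefSeq lists 58 such symbols, and Pcdha8, Pcdha10, Pcdhb1, Pcdhb15, Pcdhb21 and Pcdhgc4 were not analysed here. Besides the symbol, the choice rested on presence in a table in which no gene has a largest value under 10.6. The members nearest to that limit were Pcdhb2, with a largest value of 14.2, and Pcdhb16, with 16.1.

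The samples were 3 mice whose middle cerebral artery was occluded for 1 h (MCAO) and 3 control mice with no occlusion, all killed after 3 days. In both groups the middle section of the left hemisphere went into a RiboTag immunoprecipitation, which pulls down epitope-tagged ribosomes with the RNA on them. The series title names astrocytes, but no Cre driver, strain, sex, age or sham operation is given in the labels. Each library is 1 animal, for which 2 precipitations were pooled, and animals are numbered in record order.

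Each clustered protocadherin carries an extracellular stretch of cadherin repeats that binds the same isoform on a facing cell, and neurons use the combination they express to tell their own branches from those of other cells. In the alpha and gamma clusters every isoform has its own promoter and first exon, which is spliced to constant exons shared by the whole cluster, whereas beta genes have no shared exons. Most isoforms are chosen stochastically cell by cell, through promoters bound by CTCF that loop with cohesin to distant enhancers. The C-type isoforms, the last first exons of the alpha and gamma clusters, are instead expressed more uniformly. Gamma protocadherins are also made by astrocytes, where they take part in contacts with synapses.

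In RefSeq (GRCm38.p6, the assembly named mm10 in the submitters' processing notes) the alpha cluster lies on chromosome 18 from 36930285 to 37188897, the beta cluster from 37264998 to 37521419 and the gamma cluster from 37661775 to 37841873. All 14 alpha genes and all 22 gamma genes of the annotation run to a common 3′ end, where the constant exons are. A read from a constant exon fits every isoform of its cluster, and no source used here says how such reads were assigned. Counts of single alpha and gamma isoforms are therefore uncertain, as are those of closely similar variable exons.

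Values are reads of a gene divided by a factor of its library, called scaled reads, and the table sets values under 1 to 1. Library depth was 4567615, 882263 and 4027185 reads in MCAO 1, 2 and 3, against 9519548, 1538901 and 1816934 in controls 1, 2 and 3. The members together held 6904, 981 and 5967 reads in MCAO 1, 2 and 3 and 16082, 2460 and 3148 in controls 1, 2 and 3. MCAO 2 was the shallowest library and had 10 of the 52 members at the floor of the table, MCAO 3 and control 1 had 1 each, and the others had 0. A count of 0 in MCAO 2 allows up to 9.33 scaled reads, against 0.863 in control 1, so log2 differences of members that rest largely on MCAO 2 are also given without it. Astrocyte markers (10 of 10) were present at summed levels of 23392 to 30862 scaled reads after MCAO and 24736 to 39675 in controls, but so were neuron markers (10 of 10), at 15290.2 to 17601 and 15777 to 19047. Animals were the replicates, with no separate culture or batch in the labels.

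After MCAO the clustered protocadherins were lower as a group. Their summed level was 4062, 3061 and 3975 scaled reads in MCAO 1, 2 and 3, against 4629, 4364 and 4751 in controls 1, 2 and 3, and the groups did not overlap. Of the 49 members with a mean of at least 10, which were tested, 43 had a negative log2 difference, against 51.3% of all 12549 genes tested. All 3 MCAO libraries lay below all 3 controls in 19 of the 49, against 12.5% of all genes, and above them in 0, against 12.4%. The median log2 difference of the tested members was -0.63 and that of all genes -0.01. Only Pcdhga3 and Pcdhgc5 passed the test in limma at a Benjamini-Hochberg adjusted p under 0.05, both lower, against 3.08% of all genes called in either direction and 0.789% called lower. EdgeR called 6 members lower, against 1.08% of all genes, and DESeq2 4, against 1.28%. Limma called 0 members higher, against 2.3% of all genes, and 0 were higher at an unadjusted p under 0.05, against 10.1%. EdgeR called 0 higher, against 3.06% of all genes, and DESeq2 0, against 388 of all 12549 genes. At an unadjusted p under 0.05, 20 members were lower, against 9.16% of all genes. Pcdhga1 and Pcdhga2 reached the mean of 10 through the controls alone, so counts over tested members are a description of those that passed. Without MCAO 2, 40 of 49 log2 differences were negative and 20 members lay wholly below the controls, against 17.2% of all genes. In such tissue libraries, fewer cells of a type and less RNA per cell cannot be told apart.

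**Figure D1:**
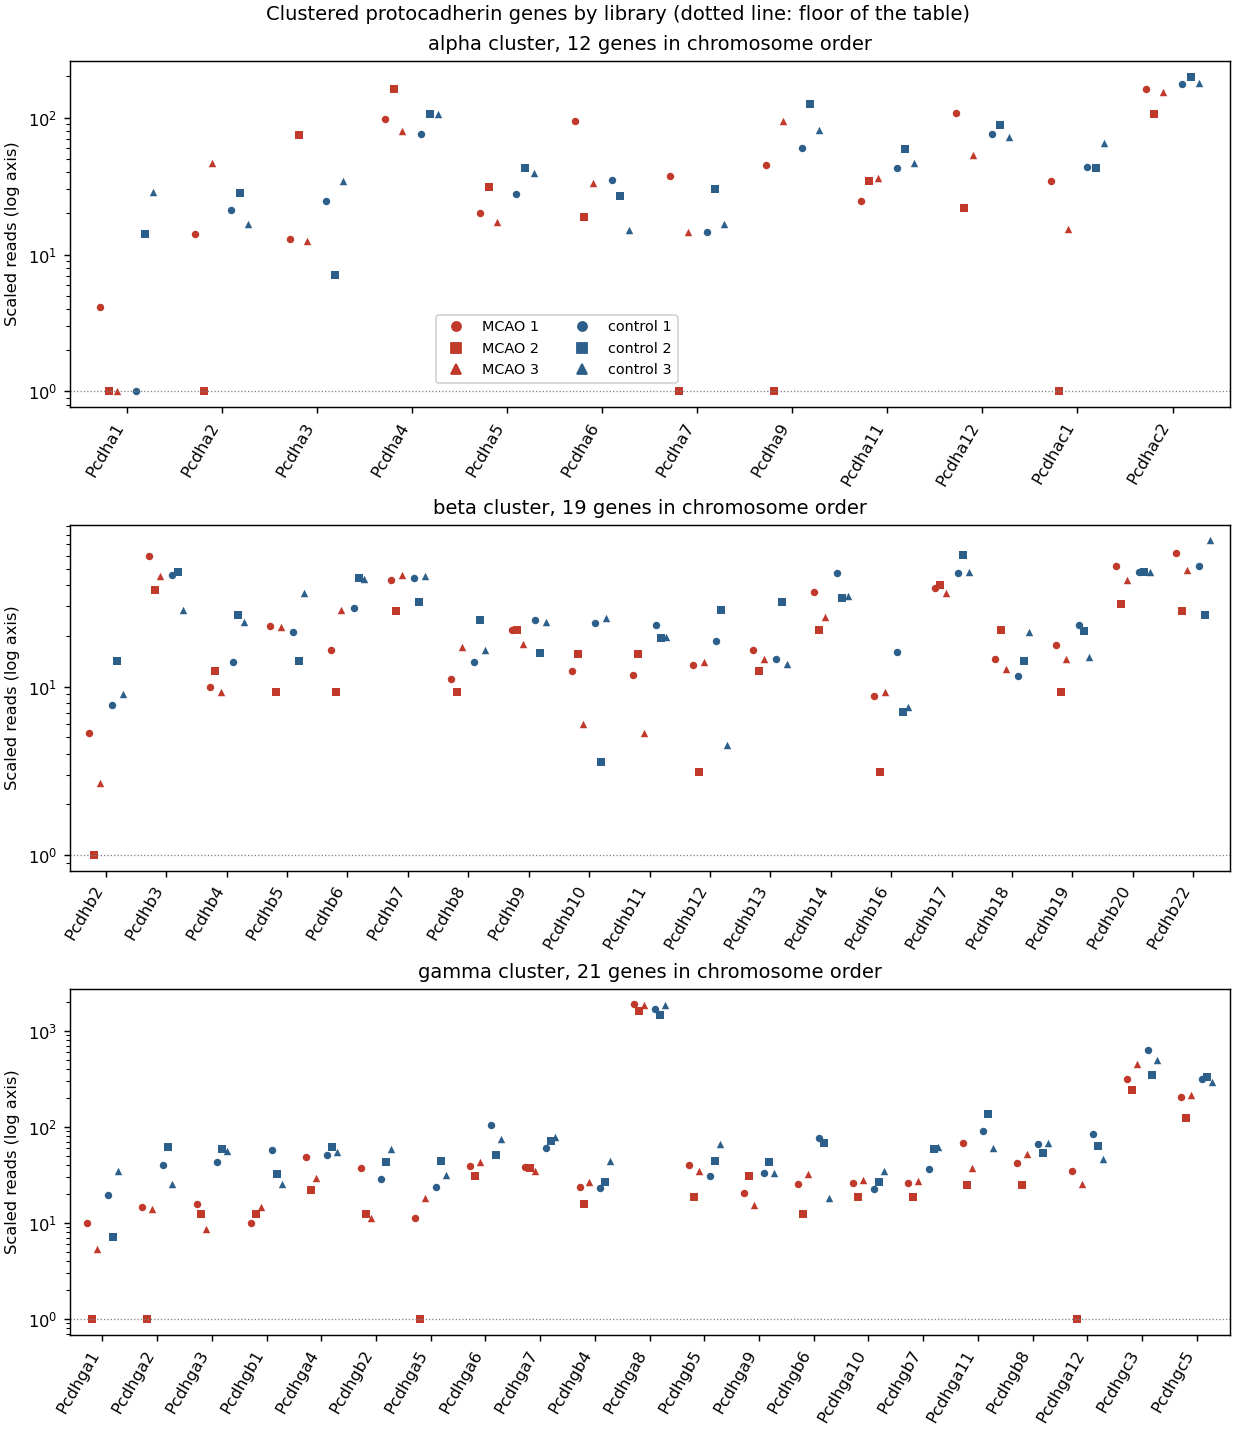
Scaled reads (log axis) of the 52 clustered protocadherin genes in each MCAO library (red) and control library (blue), in chromosome order within each cluster; marker shape gives the animal within its group. Most gamma A and gamma B genes sit lower after MCAO, Pcdhga8 stands far above its neighbours in both groups, and 10 genes are at the floor in MCAO 2.

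The gamma A and gamma B isoforms, which are the alternate, stochastically chosen isoforms of the gamma cluster, were lower after MCAO in sum once Pcdhga8 was set apart. All 18 of them other than Pcdhga8 had negative log2 differences, and 11 lay wholly below the controls, against 12.5% of all genes. Pcdhga1 and Pcdhga2 are among the 18 and Pcdhga2 among the 11, though both passed the filter through the controls alone. The 15 gamma A and B genes at the floor in no library leave both out and include Pcdhga8. Of these, 14 had negative log2 differences and 8 lay wholly below the controls. The summed level of the 18 genes was 531, 296 and 458 scaled reads in MCAO 1, 2 and 3. It was 889.9, 951 and 874 in controls 1, 2 and 3, a ratio of means of 0.473. The 3 controls lay close together at 905 ± 40.7 scaled reads, while the MCAO libraries, at 428 ± 119.9 (SD, n = 3 each), spread more widely and were all lower. With Pcdhga8 the 19 genes summed to 2219 ± 267 after MCAO and 2562 ± 152 in controls, and the groups overlapped. The median log2 difference of the 19 genes was -1.04, and -0.91 without MCAO 2.

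Pcdhga3 (37674335 to 37841873) had 15.9, 12.4 and 8.66 scaled reads in MCAO 1, 2 and 3, against 42.6, 58.5 and 55.8 in controls 1, 2 and 3. Every control was more than every MCAO library by a wide margin, and no library was at the floor. The log2 difference was -2.02 (SE 0.35, limma adjusted p = 0.00568), and it stayed called with any 1 library left out (adjusted p 0.00879 to 0.0323).

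Its neighbours at the start of the gamma cluster were low after MCAO as well. Pcdhga2 had 14.7 and 13.99 scaled reads in MCAO 1 and 3 and 0 reads in MCAO 2, against 40.3, 62.1 and 25.7 in controls 1, 2 and 3. The groups did not overlap, but the log2 difference of -2.40 (SE 0.68) did not pass the test (adjusted p = 0.0736) and was -1.42 without MCAO 2 (adjusted p = 0.101). Pcdhgb1 had 10.0015, 12.4 and 14.7 scaled reads in MCAO 1, 2 and 3, against 57.0, 31.9 and 25.7 in controls 1, 2 and 3. Here too every control lay higher, with a log2 difference of -1.49 (SE 0.40, adjusted p = 0.0594). Pcdhga1 had 10.0015 and 5.33 scaled reads in MCAO 1 and 3 and 0 reads in MCAO 2, against 19.6, 7.10 and 34.7 in controls 1, 2 and 3. Control 2 overlapped the MCAO libraries in this gene, and its log2 difference of -1.81 (SE 0.74) was -1.12 without MCAO 2. EdgeR on the recovered reads called Pcdhga2 (adjusted p = 0.0397) and Pcdhgb1 (0.0191) lower, and DESeq2 called them too (0.0112 and 0.0168). Pcdhga2 passed the filter of these fits through the controls alone, which limits what its calls can show.

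Farther along the cluster, several gamma A and B genes also had all MCAO values under all controls, and none of these was called by limma. Pcdhga7 had 38.2, 37.3 and 34.6 scaled reads in MCAO 1, 2 and 3, against 60.1, 71.0 and 78.5 in controls 1, 2 and 3. The values were close together within each group, with a log2 difference of -0.90 (SE 0.24, adjusted p = 0.0580). Pcdhga6 had 39.4, 31.1 and 43.3 scaled reads after MCAO, against 104, 51.4 and 75.5 in controls (-0.96, SE 0.28, adjusted p = 0.0862). It was called without control 2 (0.0358), but without MCAO 2 it was -0.83 and not called (0.205). EdgeR called both Pcdhga7 (adjusted p = 0.0473) and Pcdhga6 (0.0394) lower, so that its count of lower gamma A and B genes was 5, Pcdhga2 among them. Pcdhga11, after Pcdhga8 the most read gamma A gene, had 67.7, 24.9 and 37.3 scaled reads after MCAO and 89.8, 137 and 60.4 in controls. Its groups overlapped, since MCAO 1 lay above control 3 (-1.16, SE 0.35, adjusted p = 0.0938). It was called without MCAO 1 (0.0349), but without MCAO 2 it was -0.84 and not called (0.259).

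Among gamma B genes, Pcdhgb7 (-1.08, SE 0.31, adjusted p = 0.0808) and Pcdhgb8 (-0.69, SE 0.29, adjusted p = 0.216) lay wholly below the controls. Pcdhgb8, the most read gamma B gene, is annotated in RefSeq as a transcribed pseudogene and had 42.4, 24.9 and 52.0 scaled reads after MCAO, against 65.9, 53.2 and 67.9 in controls. All 3 of its MCAO values were under its controls, and its log2 difference was -0.39 without MCAO 2. Of the other gamma genes, some overlapped between the groups and some lay wholly below the controls. The smallest differences were those of Pcdhga10, with 25.9, 18.7 and 27.97 scaled reads after MCAO and 22.4, 26.6 and 34.7 in controls (-0.20, SE 0.34), and Pcdhgb4 (-0.47, SE 0.37), and in both genes the groups overlapped. Without MCAO 2 they were -0.029 and -0.25. Pcdhgb5 had 40.0, 18.7 and 34.6 scaled reads after MCAO and 31.1, 44.3 and 66.4 in controls, with overlap (-0.59, SE 0.36, and -0.27 without MCAO 2). Pcdhga12 (-2.38, SE 0.78) and Pcdhga5 (-2.10, SE 0.68) lay wholly below the controls with 0 reads in MCAO 2, without which they were -1.07 and -1.12, while Pcdhgb2 (-1.20, SE 0.44) and Pcdhgb6 (-1.04, SE 0.49) overlapped. Single libraries decided the call in the last pair: Pcdhgb2 was called without MCAO 1 (adjusted p = 0.0486) and Pcdhgb6 without control 3 (0.0430). Without MCAO 2, Pcdhgb2 was -0.97 (adjusted p = 0.342) and Pcdhgb6 -0.67 (0.565). Pcdhga4 (-0.80, SE 0.31) and Pcdhga9 (-0.72, SE 0.34) lay wholly below the controls too.

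**Figure D2:**
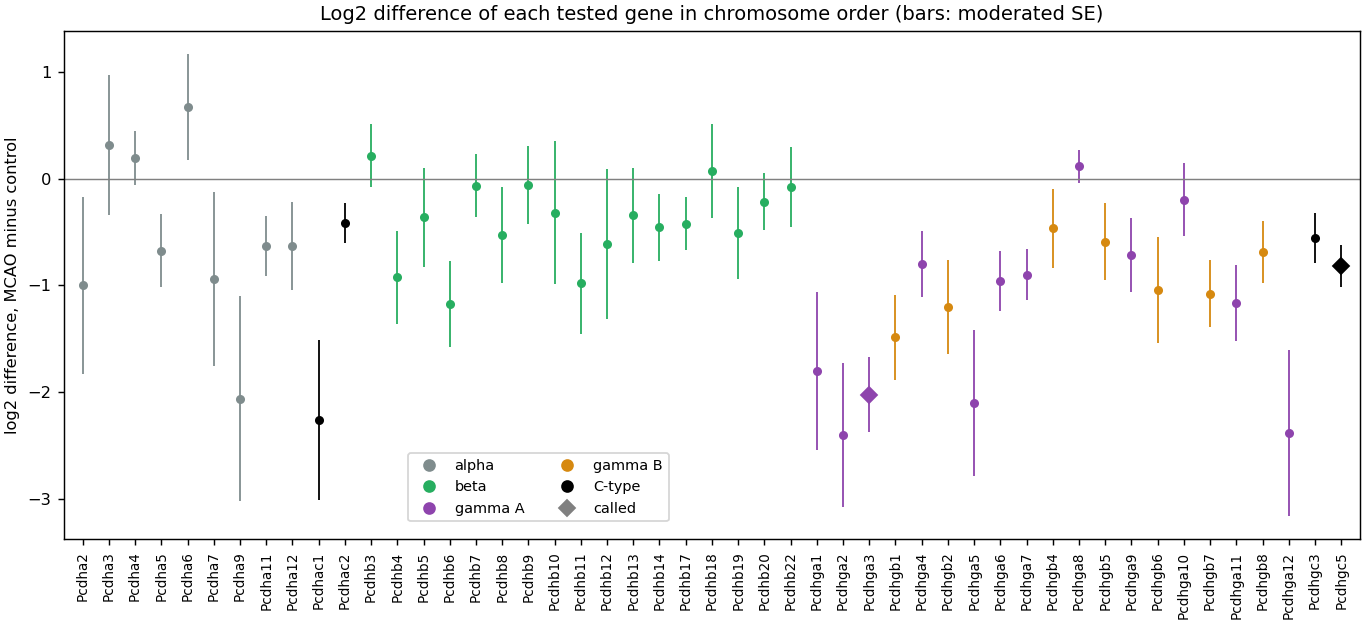
Log2 difference, MCAO minus control, on the log2(scaled reads + 1) scale for the 49 tested genes in chromosome order, with the moderated SE as bars and diamonds for the genes called by limma. Gamma genes other than Pcdhga8 are all below 0, and Pcdhga3 and Pcdhgc5 are the called ones.

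Pcdhga8 (37725706 to 37841873) did not share this pattern. It had 1882, 1617 and 1872 scaled reads in MCAO 1, 2 and 3, against 1674, 1458 and 1839.5 in controls 1, 2 and 3. The groups overlapped, with a log2 difference of 0.11 (SE 0.15, adjusted p = 0.730), which was 0.19 without MCAO 2. It held 64.2%, 71.1% and 62.5% of the gamma cluster's reads in MCAO 1, 2 and 3, against 47.8%, 47.4% and 52.4% in controls 1, 2 and 3, and every MCAO share was above every control share. Its counts were far above those of the other gamma A and B genes, whose highest single value was 137 scaled reads, in Pcdhga11. These are shares of counted reads and not levels per length, and the part of constant-exon reads in them was not tested. Whether Pcdhga8 differs in its response from the other gamma genes was not tested either.

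The C-type isoforms were lower after MCAO in sum, at 715, 471 and 835 scaled reads in MCAO 1, 2 and 3, against 1159, 912 and 1040 in controls 1, 2 and 3. All 4 had negative log2 differences, with a median of -0.69 (-0.45 without MCAO 2), and 3 lay wholly below the controls, against 12.5% of all genes. Pcdhgc5 (37819546 to 37841873), a late-expressed isoform found at inhibitory synapses, had 205, 124 and 214 scaled reads in MCAO 1, 2 and 3, against 313, 326 and 294 in controls 1, 2 and 3. The controls were tightly grouped and all above the MCAO animals. Pcdhgc5 had a log2 difference of -0.82 (SE 0.20, limma adjusted p = 0.0392), and of -0.57 without MCAO 2. Without MCAO 1 it was still called, but it was not called with any other library left out. Its adjusted p was then 0.0904 without MCAO 2, 0.0541 without MCAO 3, and 0.110, 0.0867 and 0.0768 without controls 1, 2 and 3. It was also not called with no intensity trend (0.186). Pcdhgc3 (37806410 to 37841873), which promotes dendrite growth in mouse cortical neurons and acts on the Wnt pathway protein Axin1, had 314, 239 and 452 scaled reads after MCAO and 627, 344 and 501 in controls. MCAO 3 lay above control 2, so the groups overlapped (-0.56, SE 0.24, adjusted p = 0.218, and -0.34 without MCAO 2).

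Of the alpha C-types, Pcdhac2 (37143678 to 37187663), which spaces the axons of serotonergic neurons, had 162, 106 and 154 scaled reads in MCAO 1, 2 and 3, against 176, 199 and 179.6 in controls 1, 2 and 3. The MCAO animals were all lower, by a margin that did not pass the test (-0.41, SE 0.19, adjusted p = 0.245, and -0.22 without MCAO 2). The serotonergic neuron list could not be read beside it, as only Ddc of its 4 genes was analysed here, at 47.7, 31.1 and 29.3 scaled reads after MCAO and 44.3, 26.6 and 33.2 in controls. Pcdhac1 (37090136 to 37187657) had 34.7 and 15.3 scaled reads in MCAO 1 and 3 and 0 reads in MCAO 2, against 43.5, 42.6 and 64.9 in controls 1, 2 and 3. The groups did not overlap, and the log2 difference of -2.26 (SE 0.75, adjusted p = 0.120) rests in part on the floor value of MCAO 2. Without MCAO 2 it was -1.06 (adjusted p = 0.195), and without MCAO 1, where that floor value weighs more, it was -3.14 and called (adjusted p = 0.0342).

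**Figure D3:**
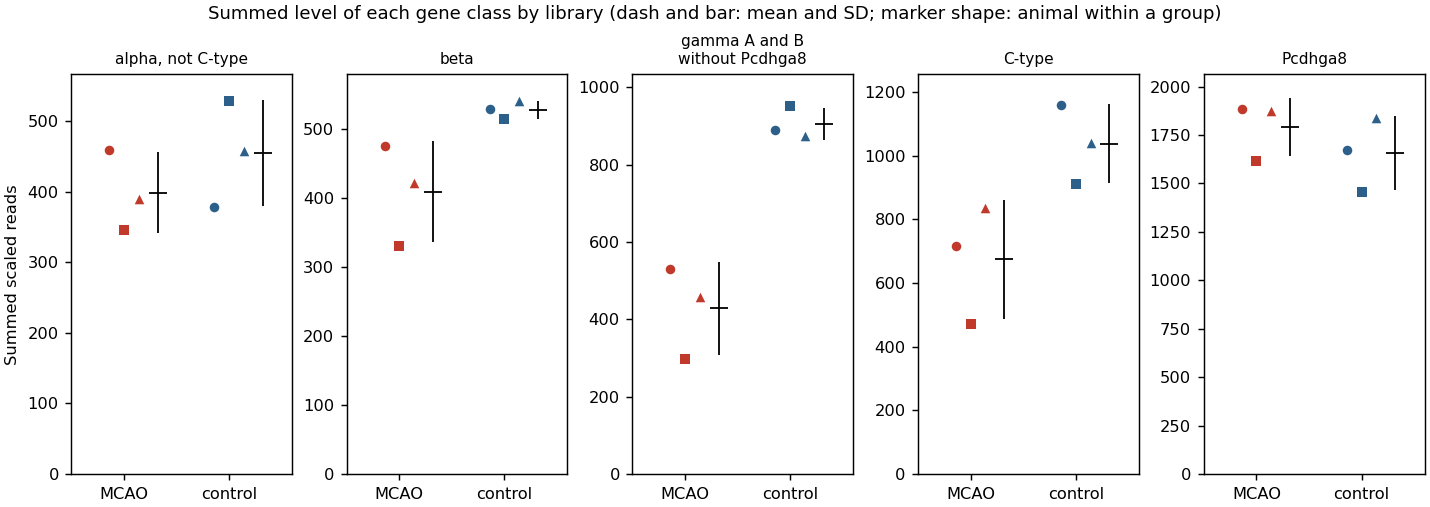
Summed scaled reads of each class of clustered protocadherin genes in each MCAO library (left, red) and control library (right, blue), with the group mean and SD as a dash and bar; Pcdhga8 has a panel of its own. The gamma A and B genes without Pcdhga8 sum to 296 to 531 after MCAO, all below the controls, while Pcdhga8 and the alpha isoforms overlap between the groups.

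The beta genes, adhesion molecules with short cytoplasmic tails and no shared exons, were lower after MCAO in sum, but none was called. They summed to 475, 331 and 421 scaled reads in MCAO 1, 2 and 3, against 528, 514 and 540.2 in controls 1, 2 and 3, without overlap. Of 17 tested beta genes 15 had a negative log2 difference, against 51.3% of all genes, with a median of -0.36 (-0.24 without MCAO 2). Without MCAO 2, Pcdhb5 (0.038), Pcdhb7 (0.15), Pcdhb12 (0.002) and Pcdhb22 (0.24) turned positive, and Pcdhb18 (-0.14) turned negative. Wholly below the controls lay 4 of the 17, against 12.5% of all genes. Limma, edgeR and DESeq2 each called 0 in either direction, and 1 was lower at an unadjusted p under 0.05, against 9.16% of all genes. That gene, Pcdhb6, had 16.5, 9.33 and 28.6 scaled reads in MCAO 1, 2 and 3, against 29.4, 44.3 and 43.8 in controls 1, 2 and 3. MCAO 3 came close to control 1 without reaching it (-1.18, SE 0.41, adjusted p = 0.135, and -0.80 without MCAO 2). Pcdhb17 was steady within groups, at 38.8, 40.4 and 36.0 scaled reads after MCAO and 47.5, 60.3 and 48.3 in controls, again without overlap (-0.42, SE 0.25, adjusted p = 0.383). Pcdhb4 (-0.93, SE 0.44) and Pcdhb11 (-0.98, SE 0.47) were the other tested beta genes wholly below the controls. Pcdhb3, the beta gene with the highest log2 difference, had 59.4, 37.3 and 45.3 scaled reads after MCAO and 46.3, 47.9 and 28.7 in controls, with overlap (0.21, SE 0.29, and 0.37 without MCAO 2). Pcdhb22, the most read beta gene, had 62.4, 27.99 and 49.3 after MCAO and 51.8, 26.6 and 73.9 in controls, a spread within each group that exceeded the difference of means (-0.08, SE 0.37, and 0.24 without MCAO 2).

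Per kb of RefSeq gene span, the 19 beta genes averaged between 1.64 scaled reads in Pcdhb16 and 15.9 in Pcdhb22 over the 6 libraries, with a median of 5.96. Alpha and gamma genes were not ranked by level, since their spans hold introns and their last exons are shared. Pcdhb2 and Pcdhb16, whose means were under 10, were not tested. Pcdhb2 had 5.29 and 2.66 scaled reads in MCAO 1 and 3 and 0 reads in MCAO 2, against 7.77, 14.2 and 9.05 in controls 1, 2 and 3. MCAO 1 and 3 lay below every control. A count of 0 in MCAO 2 allows up to 9.33 scaled reads, above the values of controls 1 and 3. Pcdhb16 had 8.82, 3.11 and 9.32 scaled reads after MCAO and 16.1, 7.10 and 7.55 in controls, with overlap.

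The alternate alpha isoforms overlapped between the groups in sum and were uneven between animals. These isoforms reach the cell surface only together with other clustered protocadherins. The 10 genes summed to 459, 346 and 390.0 scaled reads in MCAO 1, 2 and 3, against 379, 529 and 457 in controls 1, 2 and 3, and the groups overlapped. Of 9 tested genes 6 had a negative log2 difference, against 51.3% of all genes. The median of the 9 was -0.63, and -0.10 without MCAO 2. Limma, edgeR and DESeq2 each called 0 in either direction. Pcdha9 and Pcdha11 were lower at an unadjusted p under 0.05, against 9.16% of all genes.

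Single alpha isoforms stood high or low in 1 animal. Pcdha9 had 44.7 and 95.2 scaled reads in MCAO 1 and 3 and 0 reads in MCAO 2, against 60.1, 126 and 81.5 in controls 1, 2 and 3. Its log2 difference of -2.06 (SE 0.96) was -0.38 without MCAO 2. Pcdha3 was instead highest in MCAO 2, with 12.9, 74.6 and 12.7 scaled reads in MCAO 1, 2 and 3, against 24.8, 7.10 and 34.7 in controls 1, 2 and 3. Its log2 difference of 0.32 (SE 0.66) was -0.50 without MCAO 2. Pcdha6 was highest in MCAO 1, with 94.7, 18.7 and 33.3 after MCAO, against 35.1, 26.6 and 15.1 in controls. The residual SD among animals lay above the trend that limma fits for genes of like level in 7 of the 9 tested genes, against 44.5% of all genes. It did so in 6 of 17 beta genes, 11 of 19 gamma A and B genes and 4 of 4 C-type genes. Outside the clusters it did so in 9 of 11 non-clustered protocadherins, 10 of 10 astrocyte markers and 5 of 10 neuron markers. The largest alpha values, in Pcdha9 (2.13), Pcdha2 (1.66) and Pcdha7 (1.59), include the floor value of MCAO 2. Pcdha4, the most read alternate alpha isoform, had 97.7, 162 and 79.9 scaled reads after MCAO and 75.7, 106 and 106 in controls. Its groups overlapped (0.19, SE 0.25, adjusted p = 0.730), and its log2 difference was -0.10 without MCAO 2. Pcdha12 had 109, 21.8 and 53.3 scaled reads after MCAO and 75.7, 88.7 and 72.4 in controls, with overlap (-0.63, SE 0.41), and its log2 difference was -0.045 without MCAO 2. Only Pcdha11 had all MCAO values under all controls, which is 1 of the 9 tested genes, against 12.5% of all genes. It had 24.7, 34.2 and 36.0 scaled reads in MCAO 1, 2 and 3, against 42.9, 58.5 and 46.8 in controls 1, 2 and 3 (-0.63, SE 0.28, adjusted p = 0.238). Pcdha1, whose mean was under 10, was not tested; it was above the floor in MCAO 1, at 4.12, and in controls 2 and 3, at 14.2 and 28.7. Pcdha2 (-1.0004, SE 0.83) and Pcdha7 (-0.94, SE 0.81) had 0 reads in MCAO 2, without which they were 0.25 and 0.26, and Pcdha5 (-0.67, SE 0.34) was above the floor in every library. In these 3 genes the groups overlapped.

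Non-clustered protocadherins, adhesion proteins of single genes elsewhere in the genome, were not called, but their sum was lower on average too. It was 2459, 1636 and 2049 scaled reads in MCAO 1, 2 and 3, against 2710, 2361 and 2808 in controls 1, 2 and 3, with overlap. The ratio of means was 0.780, against 0.808 for all clustered members. Of 11 tested genes 8 had a negative log2 difference, against 51.3% of all genes, with a median of -0.28. Limma, edgeR and DESeq2 each called 0. At an unadjusted p under 0.05, 4 were lower, against 9.16% of all genes, and 0 higher, against 10.1%. Wholly below the controls lay 2 of the 11, against 12.5% of all genes, and wholly above them 1, against 12.4%. Pcdh10 had 555, 460.3 and 499 scaled reads in MCAO 1, 2 and 3, against 787, 527 and 825 in controls 1, 2 and 3, and the groups overlapped (-0.47, SE 0.18, adjusted p = 0.163). Pcdh1 had 515, 323 and 436 scaled reads after MCAO and 486, 502 and 551 in controls, with overlap (-0.30, SE 0.17, adjusted p = 0.368).

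Genes for the machinery of protocadherin promoter choice were not called. Of 17 tested genes for CTCF, cohesin, DNA methylation and related chromatin proteins, 11 had a negative log2 difference, with a median of -0.21, and limma, edgeR and DESeq2 each called 0 (1 lower at an unadjusted p under 0.05, Stag2). The cohesin subunit gene Rad21 had 611, 569 and 635 scaled reads in MCAO 1, 2 and 3, against 574, 646 and 456 in controls 1, 2 and 3 (0.13, SE 0.16). Smc1a, another cohesin subunit gene, had 243, 289 and 337 after MCAO and 229, 428 and 195 in controls (0.10, SE 0.24). In both genes the groups overlapped.

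Of 22 genes for binding partners and signalling of clustered protocadherins, among them the WAVE actin complex, focal adhesion kinases and the proteases that cut the proteins, 16 had a negative log2 difference, with a median of -0.18. Limma and edgeR called 0 and DESeq2 1 (4 lower and 2 higher at an unadjusted p under 0.05). Cyfip2, a WAVE complex subunit gene, had 2119, 1854 and 2061 scaled reads in MCAO 1, 2 and 3, against 2774, 3259 and 2565 in controls 1, 2 and 3, without overlap (-0.51, SE 0.16, adjusted p = 0.102). Nckap1, also of that complex, had 1428, 1213 and 1326 after MCAO and 1437, 1769 and 1348 in controls, with overlap (-0.19, SE 0.16, adjusted p = 0.528). Brk1, a small subunit of the complex named after its values were seen, went the other way, with 327, 342 and 258 scaled reads after MCAO, all above the 226, 170.3 and 225 in controls (0.58, SE 0.17, adjusted p = 0.0883).

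Markers of several cell types were called in the same libraries. The list of 10 general neuron markers had a median log2 difference of -0.01 (limma, edgeR and DESeq2 each called 0; 0 at an unadjusted p under 0.05). Snap25 had 4389, 3375 and 3228 scaled reads in MCAO 1, 2 and 3, against 3374, 3477 and 3415 in controls 1, 2 and 3, and Eno2 had 3089, 2628 and 3233 after MCAO and 2561, 3314 and 2657 in controls. Markers of striatal neurons were lower, with a median of -1.44 and 7 of 8 genes called by limma. They summed to 954 to 1335 scaled reads after MCAO and 2196 to 2389.5 in controls. Drd2 (-1.99, SE 0.30), Adora2a (-1.79, SE 0.27) and Rgs9 (-1.49, SE 0.20), genes of dopamine and adenosine signalling in those cells, fell most. Microglia markers had positive log2 differences in 10 of 10 genes, and limma called 7 of them higher. Their median was 1.89, with sums of 2103 to 2783 after MCAO and 583 to 769.9 in controls. Tyrobp (3.70, SE 0.52), C1qb (3.49, SE 0.26) and C1qc (3.20, SE 0.21) changed most. Oligodendrocyte markers had positive log2 differences in 8 of 8 genes, and limma called 3 of them higher (Mog, Mag and Cldn11). Their median was 0.61, with sums of 12199 to 15632 after MCAO and 8249 to 9421 in controls. Of 5 oligodendrocyte precursor markers 3 had positive log2 differences, and limma called Cspg4 higher. The list median was 0.58, with sums of 998 to 1278 after MCAO and 679 to 877 in controls. Astrocyte markers had a median of -0.29 (limma and edgeR called 0 and DESeq2 1; 2 lower at an unadjusted p under 0.05). Slc1a2 had 8685, 10245 and 10108 scaled reads after MCAO and 16528, 9567 and 17046 in controls, and Aldoc had 6578, 8905 and 10698 after MCAO and 8615, 6639.9 and 6510.1 in controls. Of endothelial markers 4 of 6 were analysed here, at sums of 52.0 to 63.0 after MCAO and 48.9 to 63.9 in controls, and of choroid plexus markers 3 of 6, at 695 to 1095 and 697 to 714 (limma, edgeR and DESeq2 each called 0 in both lists; 1 choroid plexus gene, Ttr, was higher at an unadjusted p under 0.05). No measured marker of these lists was at the floor in any library. The part of these cell types in the protocadherin values was not tested.

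**Figure D4:**
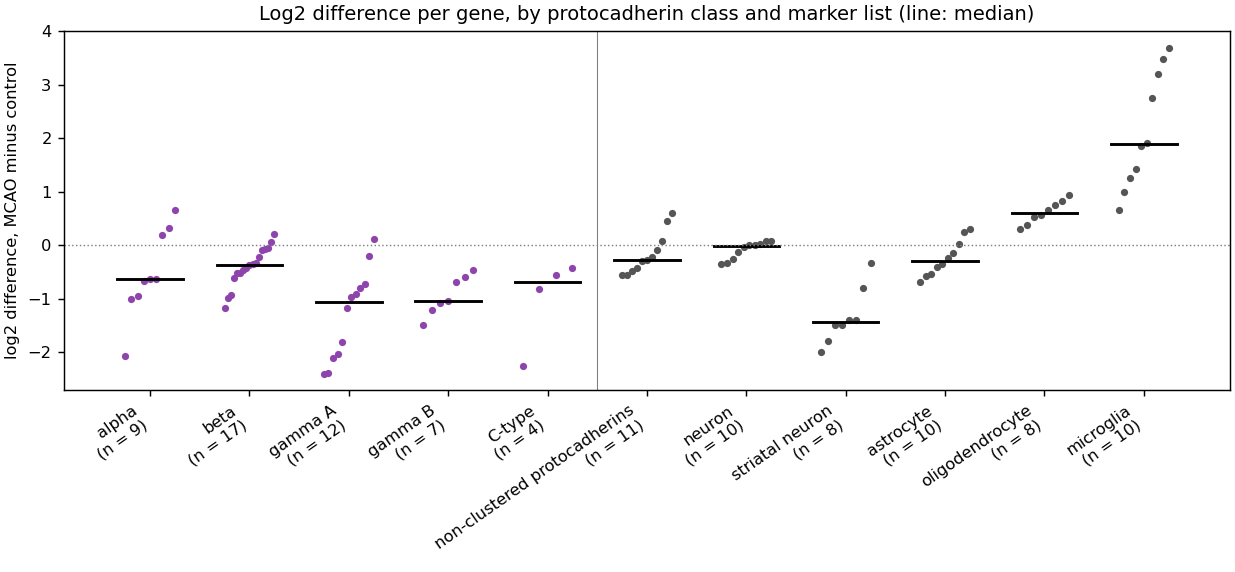
Log2 difference, MCAO minus control, of each tested gene (points) and the median (line) in the classes of clustered protocadherins (left, purple) and in lists of non-clustered protocadherins and cell type markers (right, grey). The gamma A and gamma B medians lie near -1, the neuron marker median near 0, and the striatal neuron median lies below and the microglia median above all the protocadherin classes.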

How the data were processed

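Per the submitters' processing notes, the authors named the build mm10 and the tools DESeq2, HISAT2, Partek 6.6, CASAVA 1.8 and R 3.3.1. Their roles, and how reads were counted, by strand or not, filtered and scaled, are in no source used here. The deposited values are a normalised signal: each column holds whole multiples of 1 step, which is read counts divided by a factor, with a floor of 1. Dividing by the step, 99.9% of control 1 values above the floor came within 0.1 of a whole read, as did 100% in the other libraries. Floor values were taken as 0 reads, though control 1 can hide 3 reads there and MCAO 1 and MCAO 3 can hide 1. Depth ranged from 882263 to 9519548 reads, and a count of 0 allows 3 reads; such limits cover counting error only.

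Limma 3.58.1 in R 4.3.3 (intensity trend, two-sided) was fitted on log2(scaled reads + 1) over all genes whose 6-library mean reached 10, with Benjamini-Hochberg adjustment over all of them and a threshold of 0.05. SE is moderated. A pseudocount of 1 shrinks log2 differences of low genes, but a floor value in MCAO 2 can enlarge them. Every tested member at the floor there had a higher log2 difference by edgeR, such as Pcdha9 (-2.06 by limma and -0.58 by edgeR). EdgeR 4.0.16 and DESeq2 1.42.0 on recovered reads were alternatives, beside other pseudocounts, filters, scalings, variance settings and left-out libraries. The fits were tested on simulated data in which only genes with a mean of at least 50 were changed. Changes of lower genes were not part of that test. Genes named in full were the C-type members, the 2 most read and the most changed members of each class, called members, and called or else the 2 most read genes of each list. Other members were named after their values were seen. Members and lists were chosen with earlier results of these data known. Replicate numbers in record order do not pair animals. Coordinates are RefSeq's, matched by symbol for 52 of 52 members.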

Additional observations from a re-analysis of the deposited data

How the results depend on the processing

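Pcdhga3 was called under every alternative that tested it; a minimum mean of 50 leaves it out. The number of members called lower was 1 with a minimum mean of 50 or no intensity trend, 5 with quantile normalization, 6 by edgeR, 4 by DESeq2, 9 with library weights, and 1 to 5 with 1 library left out. Over all genes, 387 were called, 99 lower and 288 higher. These became 157, 18 and 139 with no trend, and 1002, 436 and 566 with library weights. With a minimum mean of 50, 181 were higher. DESeq2 called 161 lower, and leaving out control 2 and MCAO 2 together gave 231 lower. With 1 library left out, 144 to 304 were called, 22 to 97 lower and 116 to 220 higher. The alpha median, -0.63, was 0.13 by edgeR, -0.14 by DESeq2, -0.017 without control 2 and MCAO 2, and -0.73 to -0.10 with 1 library left out. The beta median, -0.36, was -0.48 with quantile normalization, -0.26 with library weights, -0.24 without control 2 and MCAO 2, and -0.47 to -0.24 with 1 library left out. The gamma A and B median stayed between -1.14 and -0.86 and the C-type median between -0.88 and -0.45. Chosen after seeing the data, leaving out Pcdhga8 moved the gamma A and B ratio of sums from 0.866 to 0.473. Members wholly below the controls numbered 19 of 49, against 12.5% of all genes. With 1 library left out they numbered 20 to 27 of 48 or 49, against 17.1% to 19.3% of all genes. Without control 2 and MCAO 2 they numbered 25 of 50, against 25.2% of all genes, so the share rises over all genes too. The sign changed, without a call, without control 2 and MCAO 2 for Pcdha4 (-0.017) and Pcdha12 (0.041). With 1 library left out, Pcdha4 lay between -0.10 (without MCAO 2) and 0.40, Pcdhb3 between -0.018 (without control 3) and 0.37, and Pcdhb22 between -0.48 and 0.24 (0.24 without MCAO 2 and also 0.24 without control 3). Among the genes named in full, other settings added calls of Pcdhga2, Pcdhgb1, Pcdhga11, Pcdhac1 or Pcdhgc3 in 14 cases. The cause of these changes was not tested. With a minimum mean of 50 no beta median could be given. No paired analysis was possible because the labels number no replicates. Depth limits single members most in MCAO 2, where 1 read is 3.11 scaled reads.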
